A study of Mus musculus with 6 samples.

Results

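The transcripts described here are those of 10 mouse genes that bring iron into a cell, store it, move it to mitochondria, export it or sense it: Trf, Tfrc, Steap3, Slc11a2, Slc25a37, Fth1, Ftl1, Slc40a1, Aco1 and Ireb2. They were chosen by name for their part in iron handling, and all 10 were among the 37991 genes of the count table. RNA was measured in bone endothelial cells (BECs) from the tibia of c57/Bl6 mice of 12 weeks, with 3 libraries from females and 3 from males. The paper's methods describe isolating BECs from both tibiae and femurs. The cells had been purified by their expression of endomucin, a surface protein of bone capillaries and veins, and neither sex carried a transgene or received a treatment. Samples were chosen for sequencing by RNA quality, and the labels do not say which animals gave which library, so the spread between libraries may hold technical as well as biological variation.

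Iron circulates bound to transferrin, is taken up with its receptor, is released and reduced in endosomes and is then carried into the cytosol. Iron that is not used is kept in ferritin, a shell built of heavy and light chains, or leaves the cell through ferroportin. Cells adjust these steps largely after transcription: when iron is scarce, the iron regulatory proteins bind short RNA hairpins called iron-responsive elements (IREs), which blocks translation when the hairpin lies in the 5′ UTR and protects the mRNA from decay when it lies in the 3′ UTR. In bone marrow, macrophages that take up ageing red cells and erythroblasts that build haemoglobin both handle iron in large amounts. A transcript level is therefore not a level of ferritin or ferroportin protein, and no protein or iron was measured in these libraries.

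The IREs are shown because this control acts through them. GENCODE M39 transcripts of GRCm39 were searched on the sense strand for the loop CAGTGN with a C 6 bases upstream of it, the 5 bases before the loop pairing with the 5 after it (Watson-Crick or G-T pairs). Of the 10 genes, 4 held such letters in a UTR. Each element is printed 5′ to 3′ as DNA over 27 bases, with the 6 bases of the loop in capitals. Fth1, Ftl1 and Slc40a1 each held 1 in the 5′ UTR, and Tfrc held 4 in the 3′ UTR.
Fth1, 5′ UTR, chr19:9960097-9960123, plus strand: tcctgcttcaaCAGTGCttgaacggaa
Ftl1, 5′ UTR, chr7:45109204-45109230, minus strand: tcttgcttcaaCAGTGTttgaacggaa
Slc40a1, 5′ UTR, chr1:45964626-45964652, minus strand: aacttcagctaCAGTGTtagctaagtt
Tfrc, 3′ UTR, chr16:32450038-32450064, plus strand: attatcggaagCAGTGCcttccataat
Tfrc, 3′ UTR, chr16:32450417-32450443, plus strand: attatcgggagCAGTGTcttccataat
Tfrc, 3′ UTR, chr16:32450482-32450508, plus strand: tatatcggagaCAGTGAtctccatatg
Tfrc, 3′ UTR, chr16:32450529-32450555, plus strand: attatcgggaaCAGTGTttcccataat
The elements start at base 88 of the 224-base 5′ UTR of Fth1-201, at base 79 of 253 in Ftl1-201 and at base 167 of 395 in Slc40a1-201. In Tfrc-201 they start at bases 884, 1263, 1328 and 1375 of a 3′ UTR of 2458 bases. Letters of this pattern were found in the 5′ UTR of 46 of 20574 genes (0.224%) and in the 3′ UTR of 161 of 20873 genes (0.771%). The search found no match in the UTRs of Trf, Steap3, Slc11a2, Slc25a37, Aco1 or Ireb2, which says only that these letters are not there: a form of the Slc11a2 transcript is known to carry an IRE of another shape in its 3′ UTR, which a search for these letters cannot find. A match describes letters and does not show that a protein bound there.

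The female libraries held 47678806 to 58325745 counts and the male libraries 49236654 to 50406097. A level of 3 counts, used as a floor, equals 0.0477 to 0.0639 CPM, which are counts scaled to library size with TMM factors. It allows for counting error alone, because reads amplified without molecular identifiers can copy the same molecule. The lowest of all counts of the 10 genes was 431, for Steap3 in male replicate 2, so depth did not limit them. Male replicate 3 stood apart in the comparison over all genes: edgeR's quasi-likelihood test called 8 genes at an adjusted p under 0.05 with it and 96 without it. The labelled cell type was checked against 6 marker lists. Of the endothelial markers, 16 of 16 were detected in every library, but at modest levels: Stab2, a scavenger receptor of sinusoidal endothelium, had 115 ± 9.23 CPM in females and 71.3 ± 15.3 in males (SD, n = 3). Pecam1, the adhesion molecule CD31, had 92.2 ± 9.13 and 78.6 ± 11.2 CPM (SD, n = 3) with overlap between the sexes, and Emcn, which encodes endomucin, had between 3.09 and 10.5 CPM over the libraries. Summed CPM of endothelial markers was 377 to 554 in females and 218 to 345 in males. Markers of blood cells were far more abundant. Neutrophil markers summed to 16868 to 20568 CPM in females and 28586 to 40448 in males, with S100a8 and S100a9, calcium-binding proteins of granulocytes, among them. Erythroid markers, led by the globins Hbb-bs and Hba-a1, summed to 12236 to 17601 CPM in females and 18548 to 27298 in males. Macrophage markers, led by the adhesion molecule Vcam1 and the receptor kinase Axl, summed to 6392 to 6663 CPM in females and 4103 to 5516 in males. B cell markers, led by Cd79a and Cd79b, summed to 2883 to 3279 CPM in females and 2911 to 3354 in males, and stromal markers, led by Cxcl12 and Col1a2, to 1494 to 3102 and 1243 to 2400. Transcripts of other cell types were thus abundant beside those of BECs, and in bulk samples fewer cells of a type and less RNA per cell cannot be told apart.

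The comparison of males with females asks whether transcripts for iron handling differ between the sexes in the BECs of young adult mice. None of the 10 genes passed edgeR's quasi-likelihood test after Benjamini-Hochberg adjustment over all 19480 genes tested, in which 0.0411% of all genes were called. Slc40a1, the only known cellular iron exporter, had the largest difference of the 10, with a male mean 1.57-fold below the female mean, followed by Trf (1.42-fold lower by the same measure). The groups did not overlap, with every female library above every male library, for Slc40a1, Trf and Aco1, which is 3 of 10 genes, while 7.29% of all genes did so in this direction. No member was higher in every male library, against 7.25% of all genes. The same 3 genes were below an unadjusted p of 0.05 in edgeR's test, against 9.79% of all genes in either direction, 4.76% lower in males and 5.03% higher in males. DESeq2's Wald test called Slc40a1 alone of the 10, as lower in males, where over all genes it called 0.726% of genes as lower and 1.27% as higher in males. The median log2 fold change of the 10 genes was -0.24, beside -0.0012 over all genes tested, with 8 of the 10 below 0.

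**Figure D1:**
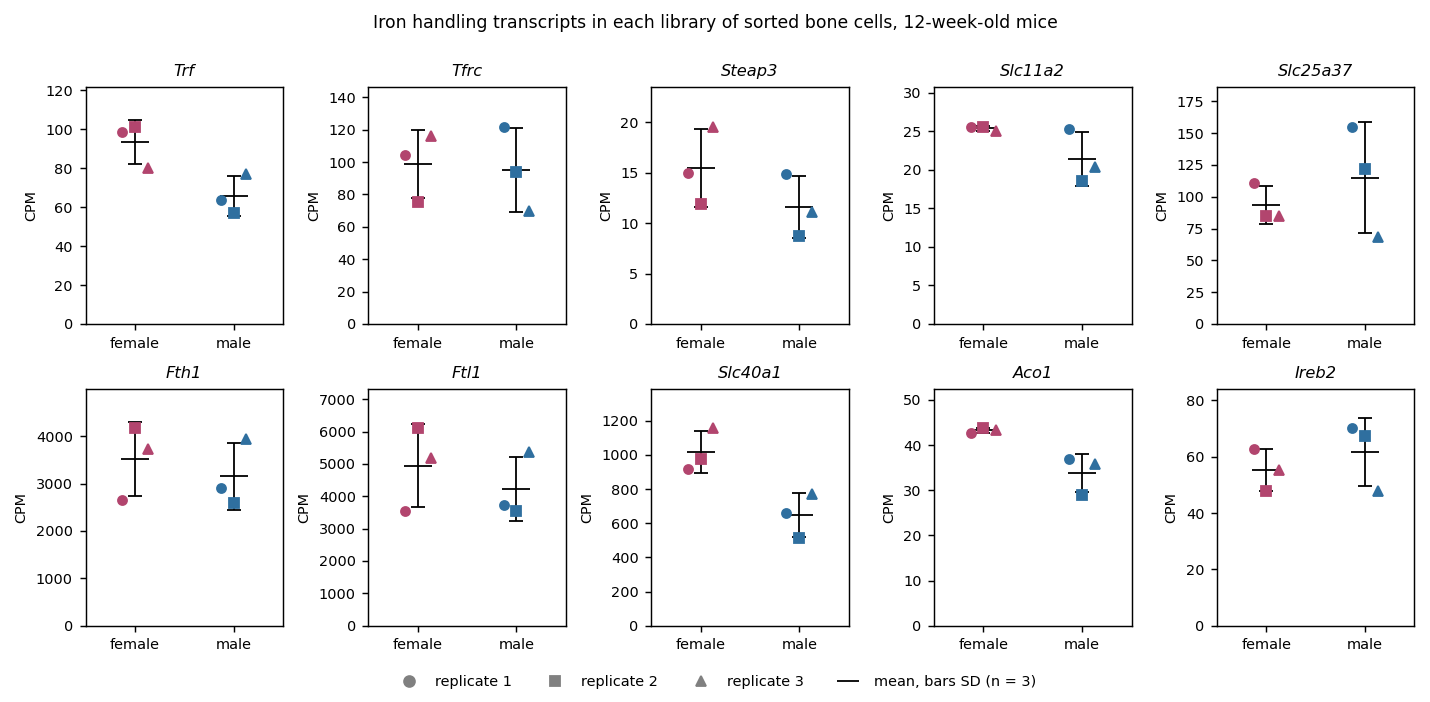
CPM of the 10 iron handling genes (linear vertical axes from 0) in each of the 3 female and 3 male libraries, with the symbol marking the replicate number and the bars the mean ± SD (n = 3). The sexes do not overlap for Slc40a1, Trf and Aco1, and Fth1 and Ftl1 show the same order of libraries.

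**Figure D2:**
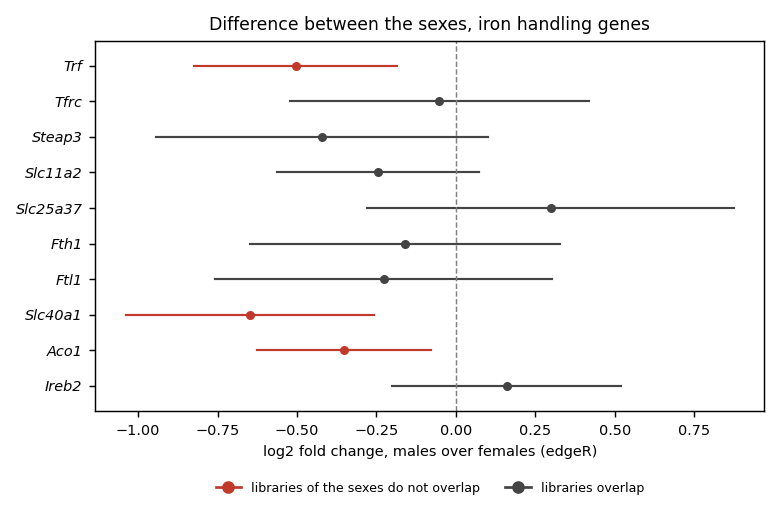
Fitted log2 fold change of males over females for the 10 genes (horizontal axis, edgeR), with bars for the 95% confidence interval and colour for whether the libraries of the sexes overlap. The intervals of Slc40a1, Trf and Aco1 lie below 0, but none of these genes passes adjustment over all genes.

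To compare levels between genes, CPM was divided by the length of the canonical transcript. Ferritin led by a wide margin. Ftl1 had a mean of 4733 CPM per kb over the 6 libraries and Fth1 3589, and although the ranges of both overlapped, Ftl1 was above Fth1 in 6 of 6 libraries. Slc40a1 followed with 240 CPM per kb (148 to 334 over the libraries), clear of the genes on either side of it. Next were Trf (31.0), Slc25a37 (25.0) and Tfrc (19.8), with ranges that overlapped between neighbours. Ireb2 (9.96), Aco1 (8.40) and Slc11a2 (7.74) formed a lower group that overlapped in the same way, and Steap3 was lowest at 2.39 CPM per kb.

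Among genes of uptake, Trf was the one with sexes apart. Trf (chr9:103081200-103107814) encodes transferrin, the plasma carrier of ferric iron that the liver secretes for the most part. Its level was 98.4, 101 and 80.4 CPM in female replicates 1 to 3 and 63.5, 57.0 and 77.1 CPM in male replicates 1 to 3. The lowest female and the highest male library differed by little, and both were replicate 3. The log2 fold change was -0.50 (SE 0.144, 95% confidence interval -0.82 to -0.18), with an unadjusted p of 0.00547 and an adjusted p of 0.270 in edgeR, and an adjusted p of 0.0958 in DESeq2.

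Tfrc (chr16:32427556-32451612) encodes the transferrin receptor, and the search for these letters found the 4 elements printed above in its 3′ UTR. It had 105, 75.4 and 116 CPM in female and 122, 94.0 and 69.7 CPM in male replicates 1 to 3. The highest and the lowest library were both male, and the groups overlapped almost fully. The log2 fold change was -0.05 (SE 0.211, interval -0.52 to 0.42, edgeR adjusted p = 0.959). Its sign depended on single libraries, the value being 0.08 without female replicate 3 and 0.13 without male replicate 3.

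Steap3, the endosomal ferrireductase that reduces the iron released from transferrin, lies at chr1:120118487-120200435. It had 15.0, 11.9 and 19.6 CPM in female and 14.8, 8.75 and 11.1 CPM in male replicates 1 to 3. Male replicate 2 was the lowest library and female replicate 3 the highest, and the log2 fold change of -0.42 had an SE of 0.235 (interval -0.94 to 0.10, edgeR adjusted p = 0.598). Slc11a2 (chr15:100285776-100322953) encodes DMT1, which carries ferrous iron out of the endosome. Its female libraries were close to each other at 25.6, 25.6 and 25.1 CPM, and the male libraries had 25.3, 18.6 and 20.3 CPM. Male replicate 1 lay within the female range and the other 2 male libraries below it, with a log2 fold change of -0.25 (SE 0.143, interval -0.56 to 0.07, edgeR adjusted p = 0.613).

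Slc25a37 (chr14:69479297-69522561) encodes mitoferrin-1, which carries iron into mitochondria and is best known from erythroblasts, where it supplies haem synthesis. It had 111, 84.9 and 84.9 CPM in female and 155, 122 and 68.7 CPM in male replicates 1 to 3. Male replicates 1 and 2 were the highest libraries and male replicate 3 the lowest. The log2 fold change was 0.30 (SE 0.256, interval -0.28 to 0.87, edgeR adjusted p = 0.754), and it was 0.02 without male replicate 1 and 0.56 without male replicate 3. Erythroid markers differed in the same direction: 5 of the 14 in the table were higher in males at an unadjusted p under 0.05 and 1 was lower, beside 5.03% and 4.76% of all genes. The 4 that were higher without overlap, beside 7.25% of all genes, were globins. Their part in the Slc25a37 values was not tested.

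Storage transcripts were the most abundant of the 10 and did not separate the sexes. Fth1 (chr19:9957911-9962462) encodes the ferritin heavy chain, which oxidises ferrous iron as it enters the shell. It had 2659, 4162 and 3733 CPM in female and 2912, 2595 and 3943 CPM in male replicates 1 to 3. Ftl1 (chr7:45107367-45109308), the light chain that favours formation of the iron core, had 3558, 6098 and 5189 CPM in female and 3741, 3556 and 5379 CPM in male replicates 1 to 3. For both genes male replicate 2, female replicate 1 and male replicate 1 were the lowest libraries and female replicate 3, male replicate 3 and female replicate 2 the highest, in that order. The ferritin pair held 0.615% to 0.977% of all counts of a library. The log2 fold change was -0.16 for Fth1 (SE 0.220, interval -0.65 to 0.33, edgeR adjusted p = 0.855) and -0.23 for Ftl1 (SE 0.238, interval -0.76 to 0.30, edgeR adjusted p = 0.797). Single libraries moved both values, to -0.02 for Fth1 and -0.05 for Ftl1 without female replicate 2 and to -0.36 and -0.44 without male replicate 3.

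Chain balance within a library was steadier than the level of either chain. Ftl1 had 1.34, 1.46 and 1.39 reads per Fth1 read in female and 1.28, 1.37 and 1.36 in male replicates 1 to 3. The log2 difference of -0.061 was within the spread (exact permutation test, two-sided, p = 0.4, where 0.1 is the smallest p that 3 against 3 allows). The level of Ftl1 is uncertain, because near-identical copies have rows of their own. Ftl1-ps1 was at 2439 ± 650 CPM in females and 2064 ± 509 in males (SD, n = 3), and Ftl2-ps at 590 ± 168 and 482 ± 131. The counts of these copies, which are not part of the Ftl1 count, summed to 58.6% to 61.7% of its size. Of all stretches of 40 bases of Ftl1-201, 76.9% also occur in Ftl1-ps1, and of 100 bases 59.2%, so the authors' counting could have split reads of Ftl1 among them. The log2 fold changes of these rows, -0.24 for Ftl1-ps1 and -0.29 for Ftl2-ps, were close to that of Ftl1. Fth1 was less affected, the counts of its copies Fth1-ps and Fth-ps2 summing to 0.634% to 1.26% of the size of its own.

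Uptake was then set against storage within each library. Tfrc had 16.8, 7.35 and 13.0 reads per 1000 ferritin reads (Fth1 and Ftl1 summed) in female and 18.3, 15.3 and 7.47 in male replicates 1 to 3. Female replicate 2 and male replicate 3 were the low libraries, so each sex held both low and high values. The log2 difference of 0.13 was not beyond the spread (exact permutation test, two-sided, p = 0.7), and its sign turned when single libraries were left out, to -0.21 without female replicate 2, -0.13 without male replicate 1 and -0.0031 without male replicate 2.

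Slc40a1 (chr1:45947211-45965683) encodes ferroportin, the exporter that hepcidin, a hormone of the liver, removes from the cell surface. It is abundant in macrophages that recycle red cells. Its level was 917, 975 and 1155 CPM in female and 662, 514 and 769 CPM in male replicates 1 to 3. Each male library lay below each female library, and the mean was 1016 ± 124 CPM in females and 648 ± 128 in males (SD, n = 3). The log2 fold change was -0.65 (SE 0.176, 95% confidence interval -1.04 to -0.26). In edgeR's test the unadjusted p was 0.00405 and the adjusted p 0.252, and DESeq2's Wald test gave -0.65 with an adjusted p of 0.0180. Over 16 other settings, which were scalings, filters, tests, fits with a replicate block and fits without 1 library, the log2 fold change stayed between -0.79 and -0.51 and the adjusted p ranged from 3.46e-05 to 0.943, so the call depends on the test and on the block, while the direction on the scale of all counts does not.

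Macrophage, endothelial and stromal markers differed in the same direction as Slc40a1. Of 14 macrophage markers, 13 were lower in males at an unadjusted p under 0.05 and 9 did not overlap between the sexes. Of 16 endothelial markers, 12 were lower in males at that threshold and 5 did not overlap. Of 10 stromal markers, 4 were lower at that threshold and 1 did not overlap. Over all genes, 4.76% were lower in males at this p and 7.29% did not overlap in this direction. None of these lists had a marker called by edgeR without a block after adjustment, while DESeq2 called 4 macrophage, 6 endothelial and 1 stromal marker (Adipoq, named after its values were seen) as lower in males, against 0.726% of all genes. The part of the stromal markers was not tested. Slc40a1 was also set against the macrophage and the endothelial sum, a step added after its values were seen. Its CPM was 14.3%, 14.6% and 18.1% of the summed macrophage markers in female and 14.4%, 12.5% and 13.9% in male replicates 1 to 3. On that scale the sexes overlapped, with a log2 difference of -0.20 (exact permutation test, two-sided, p = 0.2). Relative to the summed endothelial markers it was 173%, 259% and 209% in females and 226%, 236% and 223% in males. The log2 difference was 0.11 (exact permutation test, two-sided, p = 0.7), so the direction turned on this scale. The endothelial sum was itself lower in each male library, so a gene that was unchanged, or lower by less than this sum, turns on this scale. The smallest p that 3 against 3 allows is 0.1, and a p above the threshold does not show that the sexes were alike on these scales.

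**Figure D3:**
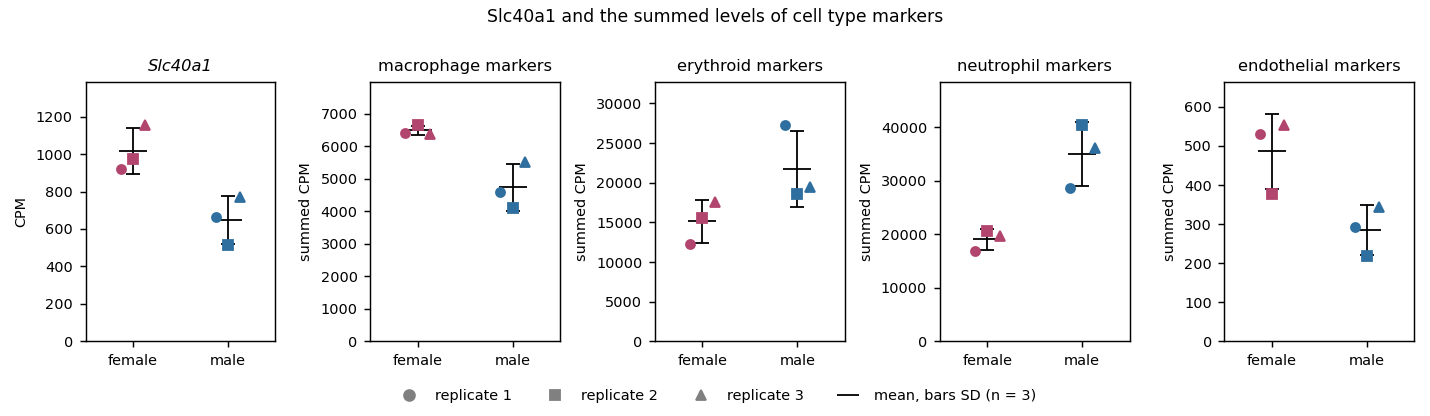
Slc40a1 (CPM, left) beside the summed CPM of macrophage, erythroid, neutrophil and endothelial markers in each library, on linear axes from 0, with the mean ± SD of 3 libraries per sex. Slc40a1 and the macrophage and endothelial sums are lower in each male than in each female library, and the erythroid and neutrophil sums are higher.

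Aco1 and Ireb2 encode the iron regulatory proteins IRP1 and IRP2, which bind the IREs printed above. IRP1 doubles as the cytosolic aconitase when it holds an iron-sulphur cluster, and IRP2 is degraded when iron is plentiful. Aco1 (chr4:40142998-40199010) had 42.8, 43.7 and 43.2 CPM in female and 36.9, 29.0 and 35.7 CPM in male replicates 1 to 3. The female libraries lay close together and were all above the male libraries. The log2 fold change was -0.35 (SE 0.123, interval -0.63 to -0.08), with an unadjusted p of 0.0168 and an adjusted p of 0.380 in edgeR and 0.312 in DESeq2. Ireb2 (chr9:54770970-54820011) had 62.8, 47.9 and 55.1 CPM in female and 70.0, 67.3 and 47.9 CPM in male replicates 1 to 3. Male replicates 1 and 2 were above the female libraries and male replicate 3 was level with the lowest of them, with a log2 fold change of 0.16 (SE 0.162, interval -0.20 to 0.52, edgeR adjusted p = 0.790).

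Ireb2 had 1.47, 1.10 and 1.28 reads per Aco1 read in female and 1.90, 2.32 and 1.34 in male replicates 1 to 3. These are ratios of reads from transcripts of unequal length, and per kb Ireb2 was above Aco1 in 4 of 6 libraries. Male replicates 1 and 2 had the highest ratios. The log2 difference was 0.51 (exact permutation test, two-sided, p = 0.2), and male replicate 3 lay within the female range. It was 0.33 without male replicate 2 and 0.72 without male replicate 3. Of the members, only Slc40a1, Trf and Aco1 were set against marker sums, picked after their values were seen because the sexes did not overlap. The log2 difference of Trf was -0.043 relative to macrophage markers (exact permutation test, p = 0.9) and 0.27 relative to endothelial markers (exact permutation test, p = 0.5). For Aco1 it was 0.10 (exact permutation test, p = 0.4) and 0.42 (exact permutation test, p = 0.2). The direction thus turned for Aco1 on both scales and for Trf on the endothelial scale. Both sums were themselves lower in each male library, so a gene that was lower by less than a sum turns on its scale.

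The rest of the pathway was followed with a list of 48 other iron genes in 7 roles, of which 40 passed the filter on low counts. EdgeR called none of them after adjustment. At an unadjusted p under 0.05, 8 of the 40 were lower and 5 higher in males, beside 4.76% and 5.03% of all genes. The sexes did not overlap for 9 that were lower and 5 that were higher in males, beside 7.29% and 7.25% of all genes. The median log2 fold change of the 40 was -0.083. DESeq2 called 1 as lower in males, Hmox1, and 3 as higher, Lcn2, Fbxl5 and Hp, beside 0.726% and 1.27% of all genes. Lcn2 and Hp, like Emcn above and Cd163, Lrp1, Slc48a1, Hfe, Heph, Hamp, Hamp2, Hephl1 and Ftmt below, were named after their values were seen.

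Of the 8 genes of haem iron that were tested, 4 were lower and 1 was higher in males at an unadjusted p under 0.05 in edgeR's test, where 4.76% of all genes were lower and 5.03% higher. Hmox1 encodes haem oxygenase 1, which frees iron from haem and is high in macrophages that recycle red cells. It had 1215, 1883 and 1523 CPM in female and 894, 622 and 1127 CPM in male replicates 1 to 3. Every male library was below every female one, with a log2 fold change of -0.81 (SE 0.233, edgeR adjusted p = 0.284, DESeq2 adjusted p = 0.0184). The haemoglobin scavenger receptor Cd163, a macrophage gene, had a mean of 327 CPM in females and 210 in males without overlap (log2 fold change -0.64, edgeR adjusted p = 0.353). Slc48a1, which carries haem out of lysosomes, and Lrp1, a receptor that takes up haem bound to haemopexin, had log2 fold changes of -0.46 and -0.51, also without overlap and not called by edgeR's test or by DESeq2's Wald test. The macrophage marker values given for Slc40a1 stand beside these genes as well, and their part was not tested. Hp, the plasma protein haptoglobin, which neutrophils also make, was higher in males at 648 against 426 CPM (log2 fold change 0.61, edgeR adjusted p = 0.217, DESeq2 adjusted p = 0.00926). The haem exporter family member Flvcr2 stayed under 0.5 CPM in each library.

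Of the other routes of uptake, the most abundant transcript was Ltf, lactoferrin of neutrophil granules. It had 1831 ± 322 CPM in females and 2291 ± 144 in males (SD, n = 3) without overlap, with a log2 fold change of 0.32 and an edgeR adjusted p of 0.578. Lcn2, a protein that binds iron carried by siderophores and is stored in neutrophil granules, had 773, 1024 and 887 CPM in female and 1330, 1550 and 1274 CPM in male replicates 1 to 3. Its log2 fold change was 0.63 (edgeR adjusted p = 0.221, DESeq2 adjusted p = 0.00496). Neutrophil markers differed in the same direction as Ltf, Lcn2 and Hp, 9 of 12 being higher in males at an unadjusted p under 0.05 (5.03% of all genes) and 9 without overlap between the sexes (7.25% of all genes), and their part in these values was not tested. Scara5, a ferritin receptor, had only 2.39 CPM in females and 4.81 in males, with overlapping libraries (log2 fold change 1.00, edgeR adjusted p = 0.502).

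Fbxl5 encodes the ubiquitin ligase subunit that senses iron and directs IRP2 to degradation. It had 93.3, 85.6 and 80.3 CPM in female and 118, 156 and 108 CPM in male replicates 1 to 3. Each male library was above each female library, with a log2 fold change of 0.56 (SE 0.148, edgeR adjusted p = 0.240, DESeq2 adjusted p = 0.0369). Ireb2, whose protein it targets, overlapped between the sexes as described above.

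Genes around ferroportin were low. The ferroxidase ceruloplasmin, Cp, which oxidises exported iron, had 35.4 ± 10.7 CPM in females and 26.7 ± 5.65 in males (SD, n = 3), and the related Heph had 6.23 and 3.62 CPM. Bmp6, the endothelial signal that induces hepcidin in the liver, had 35.2, 15.0 and 26.8 CPM in female and 15.7, 10.8 and 17.8 CPM in male replicates 1 to 3. Its log2 fold change was -0.80 (edgeR adjusted p = 0.402). The overlap came from female replicate 2, which was also the lowest female library in the summed endothelial markers (377 CPM) and in the summed stromal markers (1494 CPM), and their part in this was not tested. Hepcidin itself, Hamp, did not pass the filter and reached at most 0.256 CPM, and Hamp2, Hephl1 and the mitochondrial ferritin Ftmt had no count in any library, which allows up to 0.0639 CPM in the shallowest.

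In the other roles the differences were smaller than that of Fbxl5. The iron chaperones Pcbp2 and Pcbp1, which deliver iron to ferritin, had log2 fold changes of -0.11 and -0.12. In the transferrin cycle, Snx3, which returns the receptor to the surface, had -0.08 and the ferrireductase Steap4 0.42 (edgeR adjusted p = 0.614). Hfe, which binds the transferrin receptor, was at 57.4 against 46.0 CPM without overlap (log2 fold change -0.32, edgeR adjusted p = 0.424). For mitochondrial iron-sulphur clusters, the most abundant transcript was Iscu, the scaffold on which they are assembled, with a log2 fold change of 0.16 (edgeR adjusted p = 0.688).

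**Figure D4:**
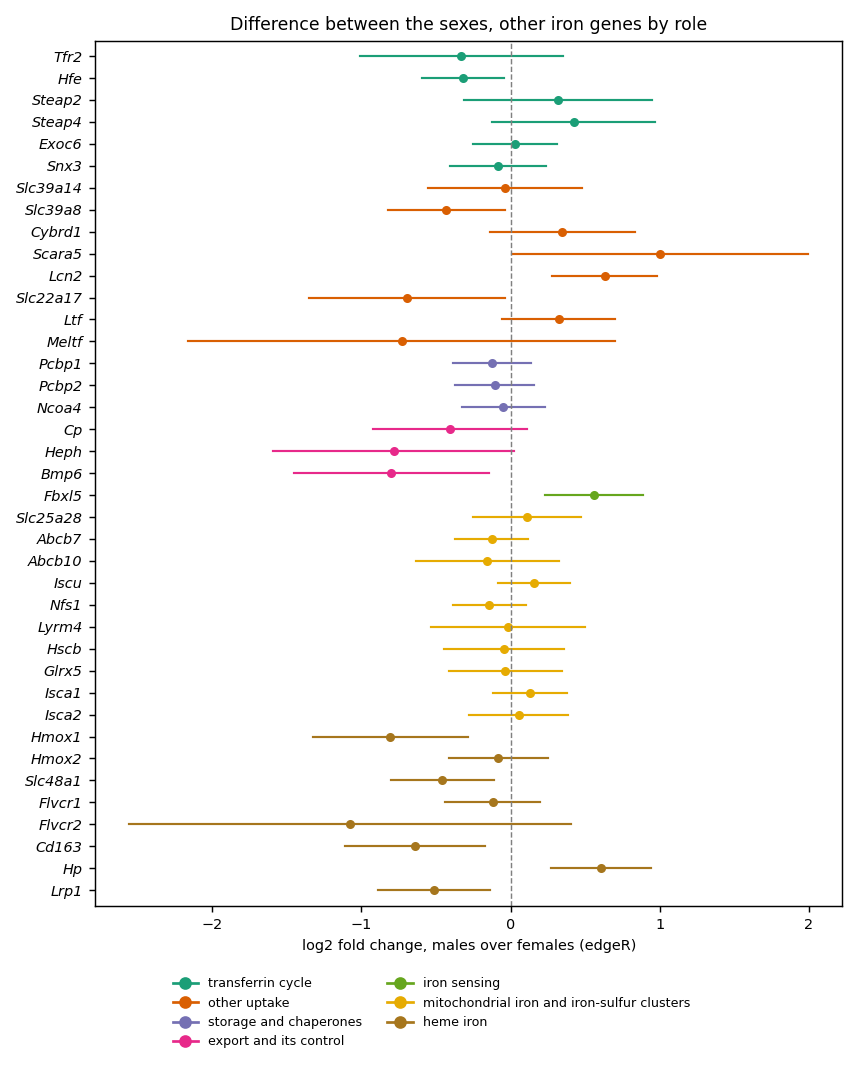
Fitted log2 fold change of males over females (horizontal axis, edgeR) for 39 of the other iron genes tested, with bars for the 95% confidence interval and colour for the role. The intervals of 8 genes, among them Hmox1 and Cd163, lie below 0 and those of 4, among them Lcn2, Hp and Fbxl5, above it, and none passes adjustment over all genes.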

How the data were processed

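The authors deposited whole-number read counts per gene and library, not normalized and with replicates not pooled. The paper gives total RNA libraries, paired reads of 100 nucleotides, STAR alignment to GRCm39 and counting with featureCounts. The labels give polyA RNA, a directional kit and reads of 40 nucleotides, and the submitters' processing notes name TopHat2 2.0.11, featureCounts and mm9/NCBIM37. The annotation release and strand setting are not given in the sources used here, and reads of overlapping or antisense genes may therefore be mixed. GENCODE M39 (GRCm39) gave symbols, positions and UTRs for 31073 of 37991 identifiers.

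Counts of 3 male and 3 female libraries were compared with edgeR 4.0.16 in R 4.3.3 (TMM scaling, filterByExpr with sex as the group, quasi-likelihood fits with robust estimation, Benjamini-Hochberg adjustment over 19480 genes, calls at adjusted p under 0.05). The SE is the log2 fold change over the square root of F. Single genes are given as TMM-scaled CPM, divided by canonical transcript length where genes were compared. Ratios within a library were tested with a two-sided exact permutation test. The fits were tested on simulated data with known changes. Alternatives were other scalings and filters, DESeq2 1.42.0, the replicate number as a block, ferritin pseudogene rows added to their parent genes, and each library left out.

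The 10 genes, the other lists and the tests were chosen with earlier results of these data known. By rule, all 10 genes were named, with any called gene of the other iron list, the most abundant and most different gene of each role, the 2 most abundant of each marker list, and the ferritin pseudogenes. Genes named outside the rule are said to be so. A gene that the rule names is not reported here.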

Additional observations from a re-analysis of the deposited data

How the results depend on the processing

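Of the 10 iron handling genes, edgeR called 0, DESeq2's Wald test 1 (Slc40a1), edgeR with a replicate block 1 (Slc40a1, adjusted p = 0.0277) and DESeq2 with the replicate block 2 (Slc40a1, adjusted p = 3.46e-05, and Trf, adjusted p = 0.0363). Of the other iron genes the same fits called 0, 4, 5 and 7. Of all genes tested they called 8 of 19480, 354 of 17762, 428 of 19480 and 714 of 17807. The 5 that edgeR called with the block were Lcn2, Bmp6, Fbxl5, Hp and Lrp1. It also called 11 of 16 endothelial, 2 of 14 macrophage and 2 of 10 stromal markers as lower and 7 of 12 neutrophil markers as higher in males, where without the block 0 of these were called. Over all genes, edgeR with the block called 2.2% in either direction and 1.06% as lower in males. The replicate numbers are shared only by label. To check them, the mean of each sex was subtracted from the log2 CPM of each gene. These deviations, not the levels themselves, were correlated between female and male libraries. Same-numbered libraries had correlations of 0.194, 0.0402 and 0.298, not all over 0.1, although 5 of 6 libraries correlated best with their own number. With no filter on low counts edgeR called 98 genes, and without male replicate 3 it called 96, again with 0 of the 10 genes among them. The other scalings and filters, and leaving out another library, gave 5 to 14.

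Over 16 alternatives the log2 fold change ran from -0.79 to -0.51 for Slc40a1, -0.63 to -0.41 for Trf and -0.42 to -0.25 for Aco1. With single libraries left out it ran from -0.64 to -0.22 for Steap3, -0.39 to -0.15 for Slc11a2, 0.06 to 0.31 for Ireb2, 0.02 to 0.56 for Slc25a37, -0.36 to -0.02 for Fth1 and -0.44 to -0.05 for Ftl1. Tfrc ran from -0.27 to 0.13 with single libraries left out and was reversed without female replicate 3 (0.08) and without male replicate 3 (0.13). Tfrc per ferritin read ran from -0.21 to 0.51 and was reversed without female replicate 2 (-0.21), male replicate 1 (-0.13) and male replicate 2 (-0.0031). Relative to summed endothelial markers, Slc40a1 (0.11), Trf (0.27) and Aco1 (0.42) were reversed, and relative to macrophage markers Aco1 (0.10) was. Both sums were themselves lower in each male library, so a gene that was unchanged, or lower by less than a sum, turns by arithmetic alone. The causes were not tested. The kits and read lengths named by the sources differ.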
